A study of Homo sapiens with 6 samples.

Results

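ATP-binding cassette (ABC) transporters use ATP to move drugs, lipids, sterols, porphyrins, peptides or vitamins across membranes, and a few members of the superfamily lack a membrane part and act on ribosomes instead. ABCB1 (P-glycoprotein), the ABCC subfamily and ABCG2 are best known in cancer cells as pumps that export anticancer agents, among them some kinase inhibitors. Other members serve lipid export, the mitochondrion, the peroxisome or the lysosome. The array comparison described here asks how the mRNA of each named ABC gene stood in neuroblastoma (NB) cells selected for resistance to an ALK inhibitor, relative to the cells they came from. The paper reports decreased ALK phosphorylation in the resistant cells, and its authors took this to exclude upregulated efflux pumps as a mechanism of resistance. Drug export and its part in resistance were not tested here.

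Members were all genes whose single annotated symbol is ABC, a letter from A to G and a number, with TAP1 and TAP2 left out, which gave 42 of the 19775 genes measured and 96 probe sets. They comprised 11 drug and organic anion pumps, 17 lipid, sterol or bile transporters, 3 mitochondrial, 2 peroxisomal and 2 lysosomal transporters, 2 sulphonylurea receptors, 4 soluble members and 1 pseudogene. Where a gene had several probe sets, the one brightest on average across the 6 arrays stands for it, and the others are given beside it where they differ.

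Transcripts were measured on Affymetrix U133 Plus microarrays, with 3 arrays for each line. SY5Y-TR1 is one subclone of SH-SY5Y cells that had been exposed to rising doses of the ALK inhibitor TAE684, and it was kept in medium with 1 μM TAE684. The reference was parental SH-SY5Y, kept in medium alone. Both lines are human NB cells that carry the ALK F1174L mutation, which keeps the kinase active. As only SY5Y-TR1 had the inhibitor in its medium, the line and the drug cannot be told apart. The arrays are labelled as biological replicates, but nothing tells of separate cultures, so the p-values measure the spread between these samples, which may be technical. Values are log2 signals from RMA, a method that corrects background, gives the arrays a common distribution and reduces the probes of a probe set to 1 value. Median signals of the 6 arrays ran from 5.57 to 5.59, and arrays correlated across probe sets with Pearson's r of 0.997 to 0.998 within a line and 0.959 to 0.960 between lines. The lines were described with marker lists, chosen with earlier results of these data known. Of 14 measured sympathetic neuroblast genes 11 were lower and none higher in SY5Y-TR1, and the tyrosine hydroxylase gene TH lay under the background level in both lines. Of 12 mesenchymal NB genes 10 were higher and none lower in SY5Y-TR1. That list includes TWIST2, SNAI2, VIM, FN1 and AXL, which the paper reports as overexpressed in SY5Y-TR1 from these arrays. It is therefore no independent check of identity. The summed log2 signal of the neuroblast list ran from 91.5 to 95 in SY5Y-TR1 and from 145.5 to 146.0 in SH-SY5Y, and that of the mesenchymal list from 137.9 to 138.5 in SY5Y-TR1 and from 113.8 to 114.6 in SH-SY5Y. None of 8 endothelial and 5 Schwann cell genes lay above the background level, while 2 of 7 blood cell genes (HBB and CD34) and 2 of 9 hepatocyte or intestinal genes (TTR and CYP3A4) did, and no gene of these 4 lists passed the test between the lines. The part of this shift in the changes of ABC genes was not tested.

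Higher and lower refer to genes that passed 2 limits, a 2-fold difference and a Benjamini-Hochberg adjusted p under 0.05 in a limma fit of all 19775 genes. Genes of unrelated tissues set a background level of 6.24 (log2), the 90th percentile of their mean signals. Where the dimmer line had no array above it, the fold is a bound, computed from the brighter mean and that level and written "at least". With both lines at or under the level no fold is stated. Signals of different probe sets are not comparable, so levels are compared only between the lines.

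In SY5Y-TR1 cells the drug pump ABCB1 fell under the background level and the pump ABCC3 rose, 12.1-fold by its brightest probe set and by 1.86 on the log2 scale over the mean of its 5 probe sets. Of the other 40 members 35 did not pass. Among these, 19 lay under the background level in both lines, where a change could be missed. Of the 42 members 3 were higher (ABCC3, ABCC10 and ABCA1) and 4 were lower (ABCB1, ABCB4, ABCD2 and ABCA12) in SY5Y-TR1. These are 7.14% and 9.52% of the members, against 5.36% and 5.99% of all genes, so the number of changed members was near the background. The median log2 fold change was 0.03 over the members and 0.04 over all genes, and 29 members (69.0%) lay within 0.3 of 0, as did 60.7% of all genes. An adjusted p under 0.05 at any fold was reached by 21 members (50%) and by 52.8% of all genes. Of the members 22 (52.4%) were above the background level on at least 1 array, against 60.2% of all genes. Of these 22 members 3 were higher (13.6%) and 3 lower (13.6%), against 8.38% and 9.17% of all genes so detected. Their median absolute log2 fold change was 0.37, and 11 of them (50%) lay within 0.3 of 0, against 0.36 and 43.1% of all genes so detected. The arrays of the lines did not overlap for 26 members (61.9%) and for 59.8% of all genes. Of the genes called, ABCC3 and ABCC10 were above the background level in both lines, ABCB1, ABCB4, ABCD2 and ABCA1 in 1 line, and ABCA12 in neither. In bulk RNA, fewer cells that express a gene and less RNA per cell cannot be told apart. The SD between replicates of a line had a median of 0.08 over the members and was at most 0.30.

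**Figure D1:**
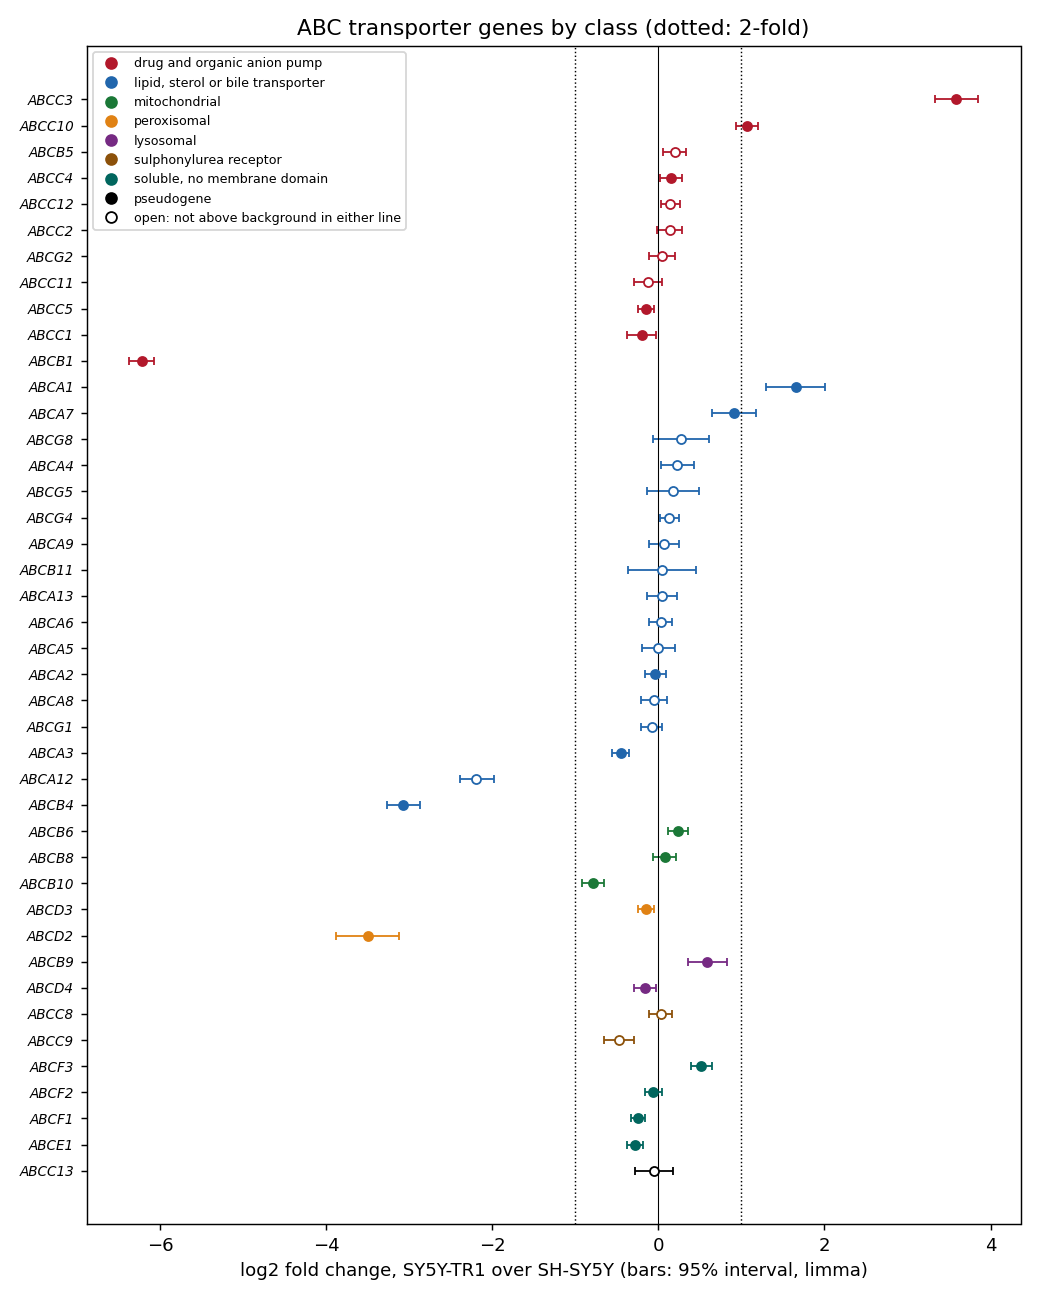
Log2 fold change (x axis, SY5Y-TR1 relative to SH-SY5Y) of each of the 42 ABC genes, grouped and coloured by class; points are limma estimates from 3 arrays in each line, bars are 95% intervals, open points are genes at or under background in both lines, and dotted lines mark 2-fold. ABCB1 stands at -6.22 and ABCC3 at 3.59, and most genes lie between the dotted lines.

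ABCB1 encodes P-glycoprotein, which exports a wide range of hydrophobic drugs. Its log2 signal was 3.78, 3.75 and 3.64 on the SY5Y-TR1 arrays, against 10.03, 9.96 and 9.85 on the SH-SY5Y arrays. All SY5Y-TR1 arrays lay far under the background level and all SH-SY5Y arrays far above it. The gene was at least 13.0-fold lower in SY5Y-TR1 (log2 fold change -6.22 ± 0.06 SE, limma adjusted p = 5.78e-09). The other ABCB1 probe set averaged 4.11 ± 0.29 in SY5Y-TR1, against 8.22 ± 0.27 in SH-SY5Y (mean ± SD, n = 3 arrays each), and it passed as lower too. A probe set annotated to both ABCB1 and ABCB4, from which no gene was named, averaged 4.83 ± 0.15 in SY5Y-TR1, against 9.72 ± 0.10 in SH-SY5Y (mean ± SD, n = 3 each). ABCB1 stayed called under each alternative tried here.

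ABCC3 encodes MRP3, an exporter of glucuronides and other organic anions that is prominent in liver and gut. It read 10.61, 11.00 and 10.71 on the SY5Y-TR1 arrays, against 7.22, 7.06 and 7.28 on the SH-SY5Y arrays. The lines did not overlap, and both were above the background level. ABCC3 was 12.1-fold higher in SY5Y-TR1 (log2 fold change 3.59 ± 0.11 SE, limma adjusted p = 3.06e-07). Its 5 probe sets all read higher in SY5Y-TR1, with log2 fold changes from 0.58 to 3.59, and 3 of them passed the 2-fold limit. The lowest value belongs to the only ABCC3 probe set whose name carries neither _s_at nor _x_at, the suffixes for probes that can match several transcripts, so ABCC3 was not called when such probe sets were left out (log2 fold change 0.58). The size of the increase therefore depends on the probe set.

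ABCC10 encodes MRP7, an exporter of lipophilic anions and of taxanes. It read 9.72, 9.88 and 9.83 in SY5Y-TR1, against 8.70, 8.75 and 8.78 in SH-SY5Y. This 2.09-fold increase (log2 fold change 1.07 ± 0.05 SE, limma adjusted p = 3.88e-06) was close to the 2-fold limit. The other probe set of ABCC10 averaged 8.32 ± 0.08 in SY5Y-TR1, against 7.55 ± 0.15 in SH-SY5Y (mean ± SD, n = 3 each), a log2 fold change of 0.77 that stayed under the limit, and ABCC10 was not called with the mean of both probe sets (0.92).

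Of the 8 other drug pumps none passed, and only ABCC1, ABCC4 and ABCC5 were above the background level. ABCC1, which encodes MRP1, an exporter of glutathione conjugates, read 9.47, 9.75 and 9.61 in SY5Y-TR1, against 9.77, 9.85 and 9.82 in SH-SY5Y. Its highest SY5Y-TR1 array lay just under its lowest SH-SY5Y array. Its log2 fold change of -0.20 (95% interval -0.38 to -0.03, adjusted p = 0.0567 from limma) did not pass. ABCG2, the breast cancer resistance protein gene, read 3.76, 3.54 and 3.61 in SY5Y-TR1, against 3.56, 3.57 and 3.65 in SH-SY5Y. All 6 arrays lay far under the background level, so expression of ABCG2 was not detected and a change in it could be missed. ABCC4 and ABCC5, which export cyclic nucleotides among other anions, had log2 fold changes of 0.15 (95% interval 0.02 to 0.28) and -0.15 (95% interval -0.25 to -0.05). A further 4 pump genes (ABCB5, ABCC2, ABCC11 and ABCC12) lay under the background level in both lines, ABCC2 being the canalicular exporter MRP2 of hepatocytes. Together with ABCG2 their means ran from 3.59 to 5.56, and their log2 fold changes lay between -0.12 and 0.20.

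**Figure D2:**
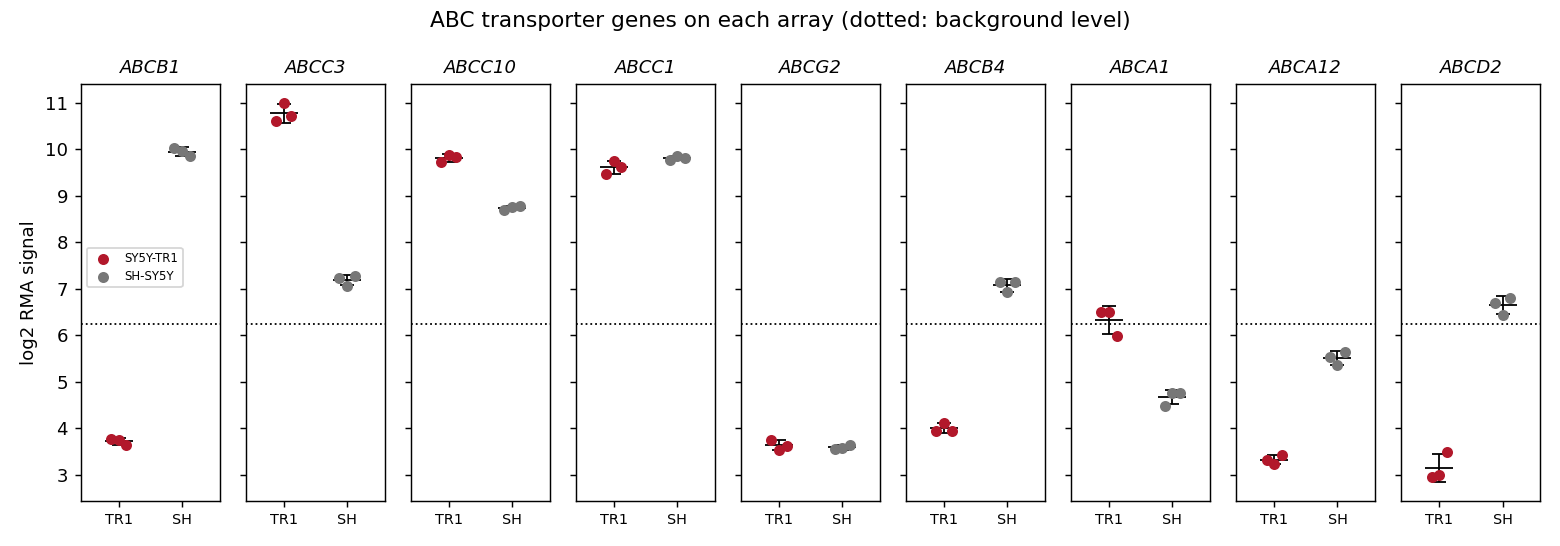
Log2 RMA signal (y axis) of 9 ABC genes by array; each line has 3 points, SY5Y-TR1 (TR1) in red on the left and SH-SY5Y (SH) in grey on the right, with mean and SD as bars, and a dotted line is drawn at the background level, 6.24. ABCB1 lies near 3.73 in SY5Y-TR1 and 9.95 in SH-SY5Y, ABCC3 near 10.77 in SY5Y-TR1 and 7.18 in SH-SY5Y, and ABCG2 lies under the dotted line in both.

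The upstream sequences of the pumps that changed are shown because an mRNA level is set in part at its promoter. They are the 250 bases before annotated transcription starts in RefSeq (GRCh38.p14), 5′ to 3′ on the strand of the gene. ABCC3 and ABCB4 had no entry in the table used. Capitals mark exact matches, on either strand, to GGGCGG (the GC box), CCAAT (the CCAAT box), CACCTG (an E-box) or TATAAA (the TATA box). TGACNNNGC and the exact DR4 direct repeat of liver X receptors were searched for too. ABCB1 is shown with both of its annotated starts, upstream at chr7:87713296-87713545 and downstream at chr7:87600885-87601134, both on the minus strand. Of ABCC10 only the first listed window is shown, at chr6:43427613-43427862 on the plus strand.
ABCB1, upstream start: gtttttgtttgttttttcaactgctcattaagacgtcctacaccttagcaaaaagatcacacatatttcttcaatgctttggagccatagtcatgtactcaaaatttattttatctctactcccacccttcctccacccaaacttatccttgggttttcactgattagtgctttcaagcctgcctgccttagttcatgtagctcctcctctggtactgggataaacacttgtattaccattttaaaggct
ABCB1, downstream start: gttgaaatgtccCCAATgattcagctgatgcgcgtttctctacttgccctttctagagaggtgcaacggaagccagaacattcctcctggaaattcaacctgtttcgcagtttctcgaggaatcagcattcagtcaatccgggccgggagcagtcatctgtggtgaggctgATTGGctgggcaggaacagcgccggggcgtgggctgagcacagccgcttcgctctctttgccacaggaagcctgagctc
ABCC10: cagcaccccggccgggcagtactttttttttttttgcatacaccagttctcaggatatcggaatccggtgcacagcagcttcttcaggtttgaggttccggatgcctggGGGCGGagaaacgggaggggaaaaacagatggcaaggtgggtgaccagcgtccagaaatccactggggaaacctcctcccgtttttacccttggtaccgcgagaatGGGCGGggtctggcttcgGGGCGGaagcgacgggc
The downstream ABCB1 window held CCAAT 238 bases before the start and its reverse complement ATTGG 79 bases before it, and the upstream window held no match. ABCC10 held 3 GC boxes. Among all 35116 windows of this length 32.0% held CCAAT and 42.6% a GC box, and of the 49 windows of 33 members 20.4% held CCAAT and 51.0% a GC box. The arrays do not say which start was used.

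ABCB1 and ABCB4 lie next to each other on chromosome 7, and ABCB4 was lower as well. ABCB4 encodes the floppase that delivers phosphatidylcholine into bile. It read 3.94, 4.12 and 3.95 in SY5Y-TR1, against 7.14, 6.92 and 7.15 in SH-SY5Y. The decrease was at least 1.77-fold (log2 fold change -3.07 ± 0.08 SE, limma adjusted p = 1.75e-07), since SH-SY5Y itself read little above the background level. The other ABCB4 probe set lay under that level in both lines, at 3.75 ± 0.08 in SY5Y-TR1, against 3.98 ± 0.10 in SH-SY5Y (mean ± SD, n = 3 each). ABCB1 and ABCB4 are close paralogues and the ABCB4 probe set that fell is of the _s_at kind, so how much of its SH-SY5Y signal came from ABCB1 transcripts was not tested.

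Genes around this pair did not all move one way. On the RUNDC3B side every measured gene within 8 places of ABCB1 had a negative log2 fold change, and the other side was mixed. RUNDC3B, which overlaps ABCB1 in the RefSeq annotation, read 4.18, 3.78 and 4.34 in SY5Y-TR1 and 6.79, 6.75 and 7.04 in SH-SY5Y, at least 1.535-fold lower, and both of its probe sets passed. On the other side CROT, which encodes a peroxisomal carnitine acyltransferase and overlaps ABCB4, did not pass at a log2 fold change of 0.82, and TP53TG1, a long non-coding RNA, was 3.00-fold higher (log2 fold change 1.58 ± 0.06 SE) through all 3 of its probe sets. Farther along on the RUNDC3B side, in genes chosen after their values were seen, DBF4, the activator of the replication kinase CDC7, was 3.20-fold lower. ADAM22, a synaptic adhesion protein gene, averaged 6.15 ± 0.16 in SY5Y-TR1, against 10.31 ± 0.02 in SH-SY5Y (mean ± SD, n = 3 each) and passed as lower through 6 of its 8 probe sets. SLC25A40, a mitochondrial carrier gene between RUNDC3B and DBF4, did not pass at a log2 fold change of -0.86. Of the 10 measured genes within 8 RefSeq places of ABCB1, 4 were lower (ABCB4 among them), 1 was higher and 5 did not pass. Over all genes 5.99% were lower and 5.36% higher.

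**Figure D3:**
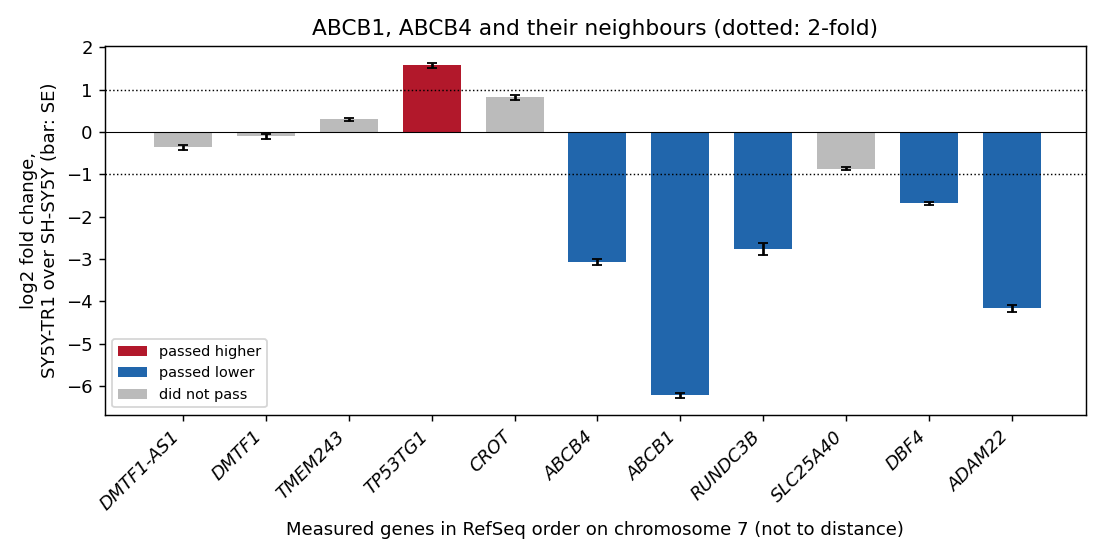
Log2 fold change (y axis, SY5Y-TR1 relative to SH-SY5Y) of ABCB1 and the 10 measured genes within 8 RefSeq places of it on chromosome 7, in chromosomal order along the x axis; bars are limma estimates with the standard error (n = 3 arrays in each line), with higher genes in red, lower genes in blue and the rest in grey, and dotted lines mark 2-fold. ABCB4, ABCB1 and RUNDC3B form a run of decreases that goes on to the right with SLC25A40 (-0.86, not passed), DBF4 (-1.68) and ADAM22 (-4.16). To the left of ABCB4 stand CROT at 0.82 and TP53TG1 at 1.58, then TMEM243 (0.30), DMTF1 (-0.10) and DMTF1-AS1 (-0.36).

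Around ABCC3 on chromosome 17, 6 genes within 3 places were measured and 1 passed, LOC101927253, listed next to ABCC3 and at least 2.38-fold higher in SY5Y-TR1. The other 5 had log2 fold changes from -0.24 for LUC7L3 to 0.16 for ANKRD40CL by their brightest probe sets, although 3 of the 6 LUC7L3 probe sets passed as lower, down to -1.41. The measured neighbours within 3 places of ABCC10 (DLK2), ABCA1 (NIPSNAP3A and NIPSNAP3B) and ABCD2 (REDIC1 and SLC2A13) did not pass, with log2 fold changes from -0.70 to 0.50. Farther out, in genes again chosen after their values were seen, SPATA20 (1.25) and TOB1 (1.18) on the 2 sides of ABCC3 and LRRC73 near ABCC10 (1.16) passed as higher, and KIF21A near ABCD2, a kinesin gene, averaged 9.31 ± 0.09 in SY5Y-TR1, against 12.75 ± 0.08 in SH-SY5Y.

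Among the lipid, sterol and bile transporters 1 of 17 was higher, 2 were lower and 14 did not pass. ABCA1, which hands cholesterol and phospholipid to apolipoprotein A-I, read 6.5, 6.49 and 5.99 in SY5Y-TR1, against 4.49, 4.75 and 4.76 in SH-SY5Y. The lines did not overlap, but only 2 SY5Y-TR1 arrays were above the background level, and the fold is no more than a bound of at least 1.06 (log2 fold change 1.66 ± 0.15 SE, limma adjusted p = 7.11e-05). Of its 4 probe sets 2 passed as higher, the other one dim in both lines. ABCA12, which loads lipid into the lamellar granules of keratinocytes, read 3.33, 3.23 and 3.42 in SY5Y-TR1, against 5.54, 5.36 and 5.64 in SH-SY5Y. It passed the test (log2 fold change -2.19 ± 0.09 SE, limma adjusted p = 9.86e-07) with all 6 arrays under the background level, so no fold is given.

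Of the lipid transporters that did not pass, ABCA7, a phospholipid transporter, came nearest to the limit. It read 7.24, 7.05 and 7.10 in SY5Y-TR1, against 5.98, 6.41 and 6.26 in SH-SY5Y, a log2 fold change of 0.91 (standard error 0.11, adjusted p = 0.000354 from limma) that stayed under 2-fold. In SH-SY5Y only 2 of 3 arrays were above the background level, and ABCA7 passed as higher without SH-SY5Y replicate 2. ABCA3, the surfactant lipid transporter of the lung, had a log2 fold change of -0.45 (95% interval -0.56 to -0.35), and ABCA2, a lysosomal lipid transporter of the nervous system, one of -0.04 (95% interval -0.16 to 0.09). The remaining 11 lipid transporters were not above background in either line. They include ABCG1, the partner of ABCA1 in sterol efflux, ABCB11, the bile salt export pump, and ABCG5 and ABCG8, which pair to return sterols to gut and bile. Their means, with those of ABCA12, ran from 2.65 to 6.09, and apart from ABCA12 their log2 fold changes lay between -0.08 and 0.27.

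Of the partners in sterol efflux, 24 genes were measured, of which 22 did not pass, 1 was higher and 1 lower, with a median log2 fold change of 0.21. NCEH1, which hydrolyses cholesteryl esters, was 4.595-fold higher in SY5Y-TR1, at 9.24 ± 0.10 against 7.04 ± 0.07 in SH-SY5Y (SD, n = 3 each). MYLIP, whose product degrades the LDL receptor and which, like ABCA1 and ABCG1, is a target of the sterol-sensing liver X receptors, was 3.66-fold lower, at 6.95 ± 0.13 in SY5Y-TR1, against 8.82 ± 0.06 in SH-SY5Y (mean ± SD, n = 3 each).

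Of the 2 peroxisomal members measured, ABCD2 was lower and ABCD3 did not pass. ABCD2, which imports very long chain fatty acyl-CoA into the peroxisome, read 2.96, 2.99 and 3.49 in SY5Y-TR1, against 6.69, 6.44 and 6.81 in SH-SY5Y. Since the SH-SY5Y arrays lay only just above the background level, its fold is a bound of at least 1.32 (log2 fold change -3.50 ± 0.16 SE, limma adjusted p = 2.13e-06), and it has a single probe set. ABCD3, which carries branched acyl-CoA and bile acid precursors, had a log2 fold change of -0.15 (95% interval -0.25 to -0.05). Its other probe set ran the opposite way, at 8.69 ± 0.13 in SY5Y-TR1, against 7.80 ± 0.13 in SH-SY5Y (mean ± SD, n = 3 each), a log2 fold change of 0.89 that stayed under the limit. Of 22 further peroxisome genes 21 did not pass, and the acyl-CoA synthetase gene SLC27A2 passed as lower although dim in both lines.

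The first listed upstream windows of ABCA1 (chr9:104928156-104928405) and ABCD2 (chr12:39619804-39620053), both on the minus strand, are printed as those of the pumps. They were chosen because their genes changed in opposite directions.
ABCA1: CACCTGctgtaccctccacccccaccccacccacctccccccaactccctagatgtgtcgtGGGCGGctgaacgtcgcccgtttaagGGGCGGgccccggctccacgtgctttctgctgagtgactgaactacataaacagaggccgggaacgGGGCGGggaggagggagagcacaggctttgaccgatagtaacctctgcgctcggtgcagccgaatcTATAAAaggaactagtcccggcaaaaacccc
ABCD2: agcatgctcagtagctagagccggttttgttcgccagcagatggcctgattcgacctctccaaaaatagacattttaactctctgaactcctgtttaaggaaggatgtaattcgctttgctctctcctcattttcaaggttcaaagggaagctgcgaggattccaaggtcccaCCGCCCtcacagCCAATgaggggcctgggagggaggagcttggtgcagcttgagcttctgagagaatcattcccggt
ABCA1 held 3 GC boxes, TATAAA 31 bases before the start and CACCTG at the far end, whereas ABCD2 held CCAAT 65 bases before its start and the reverse complement of GGGCGG 77 bases before it. TATAAA was present in 10.7% of all 35116 windows and CACCTG in 17.5%, against 10.2% and 24.5% of the 49 windows of members. The exact DR4 repeat was in no window of a member and in 0.0142% of all windows. Variants of it were not searched for, so a window without it, that of ABCA1 included, may still hold a liver X receptor site. TGACNNNGC, the core of the NRF2 site, was in 18.4% of the members' windows and 10.9% of all windows.

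The 3 mitochondrial members measured did not pass. ABCB10, which serves heme synthesis in the inner membrane, read 9.19, 9.13 and 9.11 in SY5Y-TR1, against 9.91, 9.85 and 10.02 in SH-SY5Y, so the lines were apart at a log2 fold change of -0.78 (95% interval -0.92 to -0.65, adjusted p = 2.39e-05 from limma) that stayed under 2-fold. ABCB6, a porphyrin transporter, had a log2 fold change of 0.24 and ABCB8 one of 0.08 (95% interval -0.06 to 0.21). None of 23 genes of iron-sulphur cluster and heme synthesis passed by its brightest probe set, and their median log2 fold change was 0.23. SLC25A37, the mitochondrial iron importer mitoferrin, had 1 of 10 probe sets that passed as higher (1.01). ALAS1, the first enzyme of heme synthesis, came closest, at 9.76 ± 0.02 in SY5Y-TR1, against 8.77 ± 0.07 in SH-SY5Y (mean ± SD, n = 3 each, log2 fold change 0.99), and was named after its value was seen. By the naming rule, the iron-sulphur scaffold gene ISCU had a log2 fold change of 0.73 and the chaperone gene HSPA9 one of -0.19.

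In the lysosome ABCB9, a peptide transporter, read 6.79, 6.82 and 6.74 in SY5Y-TR1 and 5.97, 6.24 and 6.36 in SH-SY5Y (log2 fold change 0.59 ± 0.10 SE, limma adjusted p = 0.00174), with the SH-SY5Y arrays near the background level. ABCD4, which releases cobalamin from lysosomes, had a log2 fold change of -0.16 (95% interval -0.29 to -0.03). Of 8 genes of cobalamin handling 1 was higher, CUBN, the endocytic receptor of the intrinsic factor complex, at 8.76 ± 0.16 in SY5Y-TR1, against 6.71 ± 0.37 in SH-SY5Y (mean ± SD, n = 3 each), and 7 did not pass, though MTR, the methionine synthase gene, had 1 of 2 probe sets that passed as lower (-1.25).

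The sulphonylurea receptors ABCC8 and ABCC9, which are the regulatory subunits of ATP-sensitive potassium channels, lay under the background level in both lines. One of the 5 ABCC9 probe sets passed as lower, also under that level. KCNJ8, which encodes a pore subunit of these channels, read 4.95, 4.64 and 5.37 in SY5Y-TR1, against 8.80, 8.80 and 8.77 in SH-SY5Y, at least 5.84-fold lower (log2 fold change -3.80 ± 0.17 SE, limma adjusted p = 1.75e-06), and both of its probe sets passed. The other pore gene, KCNJ11, lay under the background level on all 6 arrays.

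The soluble members did not pass. ABCE1, which splits ribosomes after termination, had a log2 fold change of -0.28 (95% interval -0.38 to -0.18), and ABCF1, a translation initiation factor, one of -0.25 (95% interval -0.33 to -0.16). ABCF3 had one of 0.52 (95% interval 0.40 to 0.65) and ABCF2 one of -0.06, with its 5 probe sets between -0.77 and 0.07. Of 14 genes of ribosome recycling and initiation 13 did not pass, and EIF2AK4, which encodes the kinase GCN2, passed as higher by 1 probe set (log2 fold change 1.09) and as lower by the other (-1.02). The pseudogene ABCC13 lay under the background level on all arrays.

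Among regulators of drug pumps and carriers outside the ABC family, 19 of 23 measured genes did not pass, 2 were higher and 2 lower. MVP, the major vault protein gene, first described as a lung resistance protein, read 10.05, 10.16 and 10.16 in SY5Y-TR1, against 7.42, 7.36 and 7.45 in SH-SY5Y, 6.56-fold higher (log2 fold change 2.71 ± 0.05 SE, limma adjusted p = 4.27e-08). SLC22A4, a carrier of organic cations and ergothioneine, was 2.59-fold higher. SLCO4A1, an uptake carrier of organic anions, had 1 of 2 probe sets that passed, at least 3.52-fold lower, and PDZK1, a scaffold of membrane transporters, passed as lower although dim in both lines. NFE2L2, the NRF2 gene, had a log2 fold change of 0.10 (95% interval 0.00 to 0.19).

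**Figure D4:**
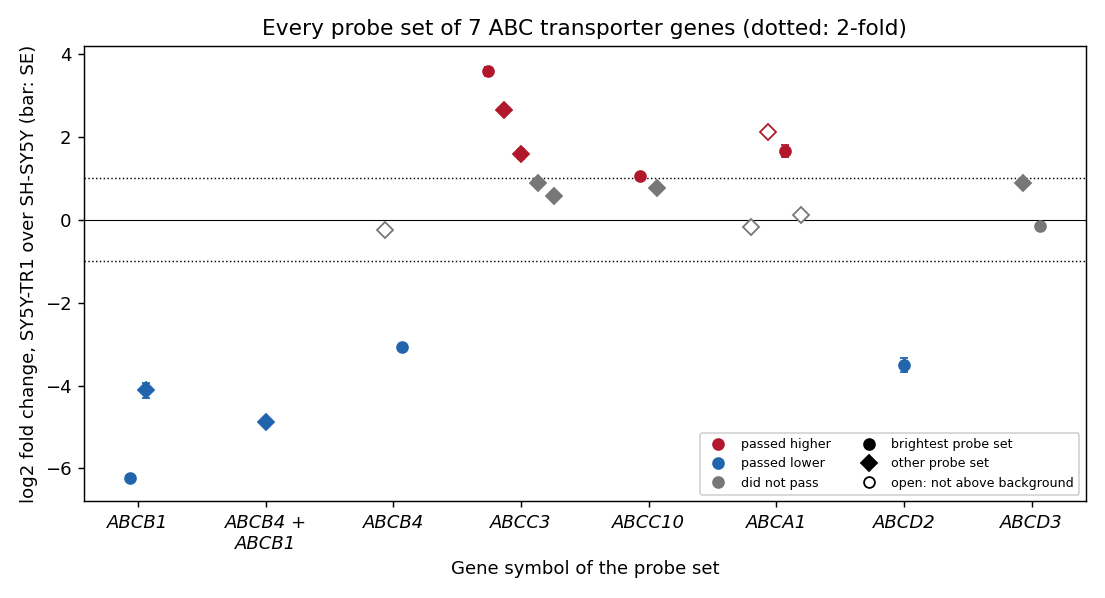
Log2 fold change (y axis, SY5Y-TR1 relative to SH-SY5Y) of every probe set of 7 ABC genes and of the probe set shared by ABCB4 and ABCB1; the brightest of each gene is a circle, the others are diamonds, colours show whether a probe set passed, open symbols were not above background in either line, bars are standard errors (n = 3 arrays in each line) and dotted lines mark 2-fold. Both ABCB1 probe sets lie below -4, the 5 of ABCC3 spread from 0.58 to 3.59, and those of ABCD3 lie on both sides of 0.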

How the data were processed

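Total RNA of SY5Y-TR1 and SH-SY5Y cells was measured on 3 arrays per line. Deposited values are log2 signals, which the authors obtained with RMA in Affymetrix Expression Console, whose version the sources used here do not give. Background correction and quantile normalization were therefore already done. The number of arrays limits the precision.

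After 62 control probe sets were left out, 54613 remained, of which 41091 had 1 gene symbol, 1801 several and 11721 none in the platform annotation. Names were checked against RefSeq (GRCh38.p14), used for names and gene order only, apart from the printed sequences. Lines were compared with limma 3.58.1 in R 4.3.3 without a replicate block. Same-numbered arrays did not deviate together (r from -0.028 to 0.005). The background level came from 35 measured genes, of which 4 lie above it by construction. The limits follow the heatmap legend of the paper, and the two-sided Student's test that its methods name for all comparisons of groups was run as an alternative.

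Named in full are all called members, ABCB1, ABCC1 and ABCG2, the 2 brightest members of each class with no called member above background, the 3 largest called changes of each partner list or its 2 brightest genes, and measured RefSeq neighbours. Members and lists were chosen with earlier results of these data known.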

Additional observations from a re-analysis of the deposited data

How the results depend on the processing

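The fit of the 42 ABC genes called 3 as higher and 4 as lower. The mean of all probe sets called 1 as higher (ABCC3), losing ABCA1 (log2 fold change 0.93) and ABCC10 (0.92). The brightest probe sets without _x_at or _s_at, which cover 36 of the members, called 1 as higher (ABCA1) and 3 as lower, losing ABCC3 (0.58) and ABCB4 (-0.24), while ABCC10 has no such probe set and was not covered. With values raised to the background level 2 were called higher and 1 lower (ABCB1), losing ABCA1 (0.16), ABCB4 (-0.83), ABCD2 (-0.40) and ABCA12. Among the 21 members above background on at least 3 arrays 2 were higher and 3 lower. Over all genes the mean of probe sets called 813 higher and 974 lower. Without _x_at or _s_at these counts were 838 and 1013 of 17098 genes. With raised values they were 868 and 942, and with genes above background on at least 3 arrays 967 and 1053 of 11503. At a fold of 1.5, 5 were higher and 5 lower, the new ones being ABCA7, ABCB9 and ABCB10, and over all genes 2171 were higher and 2162 lower, against 1060 and 1185 at 2-fold. With each array left out, 3 to 4 members were higher and 4 lower, and the sign turned for ABCG2 (-0.02 to 0.09), ABCC8 (-0.02 to 0.07) and ABCC13 (-0.13 to 0.06), which were not called. The replicate block called the same 3 higher and 4 lower members, as did housekeeping centring, quantile normalization applied again, trended variance, an adjusted p under 0.01 and the methods' t-test. Every one of the 2245 genes past 2-fold also passed the adjusted p in limma, so the fold limit alone set these counts.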
